A study of Homo sapiens with 30 samples.

Results

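Small airway epithelial cells exposed to multi-walled carbon nanotubes for 24 h were compared with unexposed cells of the same time, gene by gene. The exposed group was the 6 arrays of cells given nanotubes at 10 or 100 µg/ml, 3 arrays at each dose, and the unexposed group was the 3 arrays at 0 µg/ml. These 9 arrays were chosen by their labels, from 30 arrays in all, and the comparison ran over 11963 genes. No gene passed the test at 24 h (0 of 11963, 0%), whereas the same comparison at 1 h, with its own controls, passed 146 genes (1.22%), of which 105 (0.878%) were higher and 41 (0.343%) lower.

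The cells were human small airway epithelial (SAE) cells bought from Lonza and grown in the supplier's airway medium. They were plated in flasks, particles were added to the medium at 0, 10 or 100 µg/ml, and adherent cells were collected after 1 h or 24 h. The particles were multi-walled carbon nanotubes (MWCNT) or titanium dioxide nanobelts (TiO2-NB), and the unexposed arrays of each time served both particles. Each of the 10 groups had 3 biological replicates; the labels do not say whether these came from separate donors or from cultures of one, so the p values measure the spread between these samples. All levels below are log2 expression on arrays, and all differences are MWCNT minus control on the log2 scale unless another pair is named.

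Nanotubes are long, poorly soluble fibres that lung cells can take up but cannot readily break down. Epithelial cells that meet particles can switch on programmes for oxidative stress (NRF2 targets such as NQO1), for metals (metallothioneins), for inflammation (NF-kB targets and cytokines) and for growth factor signalling, in which immediate early genes such as EGR3 and NR4A1 are transcribed within minutes to hours and then shut off. The aryl hydrocarbon receptor, a sensor of flat aromatic molecules, switches on CYP1A1, CYP1B1 and its own feedback inhibitor TIPARP through a short DNA element known as the xenobiotic response element.

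Simple epithelial keratins were high in these cells, and so was vimentin, an intermediate filament of mesenchymal cells that cultured epithelial cells can also make. KRT8 and KRT18, looked up after the data were seen, averaged 11.41 ± 0.156 and 12.69 ± 0.114 in the MWCNT arrays (SD, n = 6) and 11.52 ± 0.36 and 12.76 ± 0.209 in the control arrays (SD, n = 3). In the same look-up, VIM averaged 13.28 ± 0.0476 in the MWCNT arrays and 13.30 ± 0.0326 in the control arrays, and the epithelial cadherin CDH1 averaged 7.89 ± 0.0682 in the MWCNT arrays and 8.06 ± 0.132 in the control arrays. The basal keratin KRT5 averaged 7.23 and 7.37 in the MWCNT and control arrays, close to the table's median of 7.18, and KRT14 averaged 3.85 and 3.83, far below it. Of the basal markers, 3 of 5 measured were above the table's median (KRT5, ITGA6 and ITGB4), against 1 of 4 secretory (SLPI), 0 of 2 ciliated, 1 of 3 immune (CD14), 1 of 5 fibroblast (COL1A1), 0 of 3 endothelial and 1 of 4 alveolar markers (SFTPC). In a longer basal list, 10 of 13 were above it in the higher of both groups, beside 58.3% of all genes. PTPRC, the pan-leukocyte marker, averaged 3.45 in the MWCNT arrays and 3.43 in the control arrays. In these bulk samples, fewer cells of a type and less RNA per cell cannot be told apart.

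One unexposed array stood apart from the other compared arrays. Control replicate 1 correlated with the other 8 arrays at 0.9953 to 0.9971 over all genes, whereas other pairs reached up to 0.9989, and its deviations from its group mean had an SD of 0.136, against 0.068 to 0.122 in the other 8. The signal of the actin control probes at the 3' end exceeded that at the 5' end by 0.86 on this array and by 0.40 to 0.61 on the other 8, a measure that grows as RNA shortens or labelling falls off. Whether this bears on the results was not tested, so most of the larger 24 h differences that moved when it was left out are given with and without it.

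At 24 h the smallest adjusted p of the 11963 genes was 0.835 in the limma fit, and 617 genes (5.16%) had an unadjusted p under 0.05, of which 319 (2.67%) were higher and 298 (2.49%) lower in MWCNT. The 6 MWCNT arrays and 3 control arrays did not overlap for 118 genes higher in MWCNT (0.986%) and 142 genes lower (1.19%). Array weights gave control replicates 1 and 2 low weights (0.308 and 0.408) and control replicate 3 a weight of 4.87. The weighted control mean thus rested largely on control replicate 3. With these weights 471 genes passed. Without control replicate 1, and with weights estimated anew on the remaining arrays, 0 passed. The fits thus differ in their weights as well as in that array, so the 0 does not show that the 471 rested on it. The median difference over all genes was -0.0069. The median standard error (SE) was 0.0703. For 11893 genes (99.4%) the 95% interval of the difference lay wholly inside a 1.5-fold change either way (0.585 on the log2 scale). The fit took the same variance for all arrays of a gene. Control replicates 1 and 2, however, deviated most from their group mean (SD 0.136 and 0.122). KLF6, described below, had an SD of 0.348 in control arrays and an SE of 0.0964, and was counted inside. The intervals here and below may therefore be too narrow, and none is given without control replicate 1. Each dose alone also passed 0 genes, with 661 unadjusted p under 0.05 (5.53%) at 100 µg/ml and 389 (3.25%) at 10 µg/ml. The 2 doses share their controls with each other and with the pooled comparison.

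**Figure D1:**
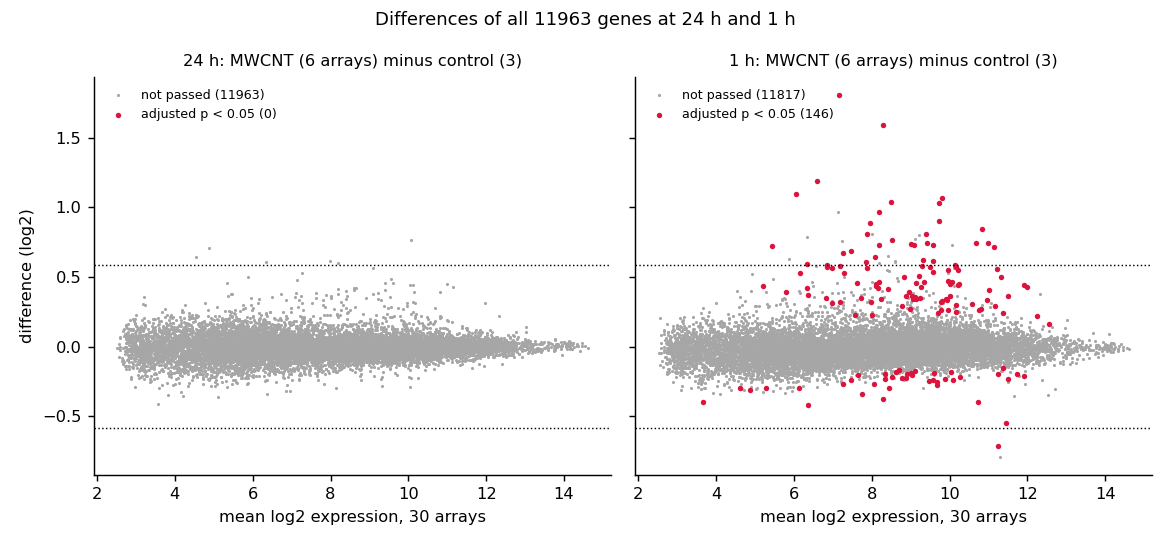
MWCNT minus control (log2, vertical axis) against the mean log2 expression over 30 arrays (horizontal axis) for 11963 genes at 24 h (left) and at 1 h (right); each point is a gene, red points passed an adjusted p of 0.05 and dotted lines mark 1.5-fold. No gene is red at 24 h and 146 are red at 1 h, and 6 genes lie past 1.5-fold at 24 h.

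6 genes, picked out after their values were seen, differed by more than 1.5-fold at 24 h (0.0502% of genes), and all 6 were higher in MWCNT: EGFR, ANKRD36B, KIF24, HELLS, COX20 and ZNF12. EGFR, the receptor of epidermal growth factor, had levels of 10.29, 10.31 and 10.41 at 10 µg/ml and 10.35, 10.42 and 10.19 at 100 µg/ml, against 8.09, 10.36 and 10.23 in control replicates 1, 2 and 3. The MWCNT arrays thus overlapped 2 of the 3 control arrays, and only control replicate 1 was low. The difference was 0.77 (SE 0.278, adjusted p = 0.941) with all 3 control arrays and 0.03 without control replicate 1, and the other EGFR probe set differed by 0.011. HELLS, a chromatin remodeller of dividing cells, differed by 0.62 with control replicate 1 and 0.17 without it. KIF24, a kinesin of the centriole, differed by 0.64 with that array and 0.47 without it, the largest of the 6 without it. Its MWCNT arrays lay between 4.87 and 5.96 with a median of 5.14, against 4.26, 5.03 and 4.50 in control arrays, with overlap. ANKRD36B and ZNF12, a zinc finger protein, differed by 0.71 and 0.60 with control replicate 1 and by 0.15 and 0.12 without it. COX20, an assembly factor of cytochrome c oxidase, differed by 0.61 and 0.13. KIF24, ANKRD36B and COX20 lay below the table's median of 7.18 in every compared array.

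The same array was the lowest of the 9 in 49 of the 50 largest positive differences, against 16.0% of all genes. The median of those 50 differences was 0.39 with it and 0.0877 without it. It was the highest of the 9 in 23 of the 50 largest negative differences (46%, against 27.3% of all genes), whose median was -0.27 with it and -0.24 without it. The negative differences therefore moved less than the positive ones when it was left out.

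Among genes above the table's median whose 6 and 3 arrays did not overlap, the 10 largest positive differences ran from 0.16 to 0.42, and none passed. HAUS2, a subunit of the augmin complex that builds spindle microtubules, had 8.99, 8.81 and 8.90 at 10 µg/ml and 8.99, 9.0 and 8.83 at 100 µg/ml, against 8.09, 8.67 and 8.73 in control arrays. All 6 MWCNT arrays were above all 3 control arrays, and the difference of 0.42 (SE 0.105, adjusted p = 0.941) was 0.22 without control replicate 1. KLF6, a zinc finger transcription factor that injury induces early, lay between 9.88 and 9.98 in MWCNT arrays with a median of 9.93, against 9.26, 9.84 and 9.88 in control arrays. Its difference was 0.27 (SE 0.0964), and 0.07 without control replicate 1. PHACTR2, a regulator of protein phosphatase 1 and actin, behaved alike at 0.39 and 0.10.

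KDM6B was the member of these 10 whose control arrays lay closest together. This histone demethylase, which removes the repressive methyl mark from lysine 27 of histone H3, had 7.59, 7.74 and 7.70 at 10 µg/ml and 7.79, 7.84 and 7.80 at 100 µg/ml, against 7.53, 7.50 and 7.51 in control arrays. The 3 arrays at 100 µg/ml lay above the 3 at 10 µg/ml, and those above the control arrays. The difference was 0.23 (SE 0.0585, 95% interval 0.11 to 0.35, adjusted p = 0.941), and 0.24 without control replicate 1, while its other probe set differed by 0.037. PGF, a placental growth factor of the VEGF family, differed by 0.19 and 0.14 with and without that array. The other 5 of the 10 were PAWR, YIPF6, LRRFIP1, USP47 and GTF3C5, at 0.16 to 0.21. Without control replicate 1, PAWR, YIPF6 and LRRFIP1 differed by 0.11, 0.07 and 0.10, and USP47 and GTF3C5 by 0.13 each. The other probe sets of YIPF6 had a median of -0.036. Those of PAWR gave 0.068 and 0.036, and those of LRRFIP1 gave 0.44 and 0.018.

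Under the same limits, the 10 largest negative differences ran from -0.32 to -0.19, and none passed. PGP, the phosphatase that clears phosphoglycolate, had the smallest p value of all genes. It lay between 7.02 and 7.12 in MWCNT arrays with a median of 7.08, against 7.32, 7.30 and 7.21 in control arrays, a difference of -0.21 (SE 0.0428, adjusted p = 0.835), and -0.18 without control replicate 1. AOX1, an aldehyde oxidase of xenobiotic metabolism, had 9.16, 9.46 and 9.55 at 10 µg/ml and 9.49, 9.34 and 9.29 at 100 µg/ml, against 9.65, 9.63 and 9.56 in control arrays. The highest MWCNT array was just under the lowest control array. The difference was -0.23 (SE 0.0599, adjusted p = 0.941), and -0.21 without control replicate 1.

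CD1D, which presents lipids to natural killer T cells, lay between 7.46 and 7.64 in MWCNT arrays with a median of 7.51, against 7.76, 7.84 and 7.70 in control arrays. The difference of -0.24 (SE 0.074) was -0.25 without control replicate 1. PPARGC1A, a coactivator of mitochondrial biogenesis, had 7.96, 7.83 and 7.92 at 10 µg/ml and 7.86, 7.59 and 7.65 at 100 µg/ml, against 8.19, 7.97 and 8.05 in control arrays. Its difference was -0.27 (SE 0.0849), and -0.21 without control replicate 1. SPRY2, an inhibitor of receptor tyrosine kinase signalling, had 7.74, 7.73 and 7.74 at 10 µg/ml and 7.68, 7.56 and 7.32 at 100 µg/ml, against 8.03, 7.77 and 7.81 in control arrays. Its 3 groups did not overlap and ran downward with dose, with a pooled difference of -0.24 (SE 0.0737, adjusted p = 0.941), and -0.16 without control replicate 1. TBCEL, a tubulin-folding cofactor relative, and SPCS3, a subunit of the signal peptidase, differed by -0.32 and -0.29, and by -0.24 and -0.10 without control replicate 1. ZNF34, LBH and ACTR8 made up the 10, at -0.22 to -0.19, and without that array at -0.18, -0.17 and -0.11.

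**Figure D2:**
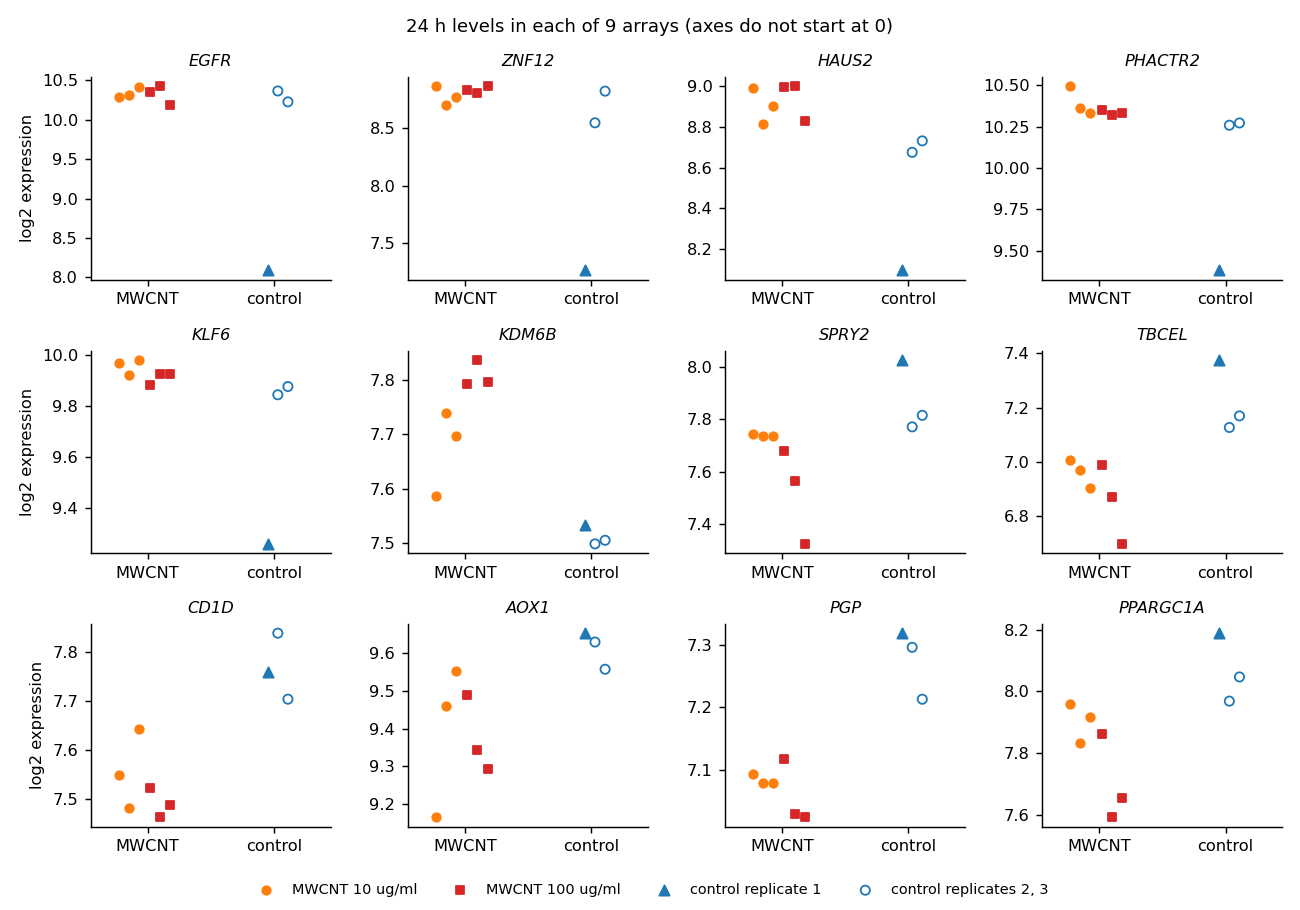
Log2 expression at 24 h of 12 genes in each of the 9 arrays, with MWCNT at 10 µg/ml (orange circles) and 100 µg/ml (red squares) at left and control arrays (blue) at right, control replicate 1 as a triangle. In EGFR, ZNF12, HAUS2, PHACTR2 and KLF6 the triangle lies far below the other control arrays, whereas in KDM6B the 3 control arrays lie between 7.50 and 7.53.

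Across 27 gene lists covering stress, inflammation, growth, differentiation and other cell types, no member passed at 24 h, and list medians lay between -0.0752 and 0.0355, beside -0.0069 for all genes. For all members of 25 lists the 95% interval lay inside 1.5-fold, and the exceptions were 1 of 26 inflammatory genes and EGFR among 13 basal markers. Without control replicate 1, the medians of 9 of the 27 lists had the opposite sign. The NRF2 list had a median of -0.0189 over 24 genes, and -0.0409 without that array. NQO1, its quinone reductase, averaged 10.19 ± 0.106 in MWCNT arrays (SD, n = 6) and 10.19 ± 0.158 in control arrays (SD, n = 3). The inflammatory list had a median of -0.0011 over 26 genes, of which only 8 were above the table's median, and 0.0448 without control replicate 1. NFKBIA, the NF-kB inhibitor that NF-kB itself induces, differed by 0.05 (SE 0.0625), and by -0.0152 without control replicate 1. Extracellular matrix genes had a median of -0.0474 with 19 of 23 below 0, beside 54.3% of all genes below 0. Secretory genes had a median of -0.0487 with 12 of 14 below 0. Only 2 of these 14 were above the table's median in the higher of both groups, against 13 of 23 matrix genes and 58.3% of all genes. Without control replicate 1, the matrix list turned to a median of 0.0055 with 10 of 23 below 0, and secretory genes had -0.0372 with 11 of 14 below 0, beside 47.0% of all genes.

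Cholesterol genes lay on the lower side, with 14 of 15 differences below 0 and a median of -0.0752, and 14 of 15 and -0.0951 without control replicate 1. INSIG1, the sterol sensor that holds back SREBP, had 9.37, 9.46 and 9.69 at 10 µg/ml and 9.50, 9.31 and 9.20 at 100 µg/ml, against 9.53, 9.76 and 9.66 in control arrays. The groups overlapped, with a difference of -0.23 (SE 0.101, adjusted p = 0.941), and -0.29 without control replicate 1. LSS, lanosterol synthase, and HMGCS1, which makes HMG-CoA, each differed by -0.13, with overlapping arrays. Without control replicate 1 they moved apart, to -0.20 for LSS and -0.04 for HMGCS1.

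Genes of cell division and stress gave small differences in both directions. Mitosis genes had 21 of 28 below 0 with a median of -0.0196, or -0.0411 without control replicate 1. DLGAP5, a spindle protein, averaged 9.92 ± 0.121 in MWCNT arrays (SD, n = 6) and 10.05 ± 0.0787 in control arrays (SD, n = 3). p53 targets had 11 of 16 above 0 with a median of 0.0355, the highest of the lists. GDF15, a stress cytokine that p53 can induce, averaged 10.58 ± 0.155 in MWCNT arrays (SD, n = 6) and 10.46 ± 0.0549 in control arrays (SD, n = 3). Genes of the unfolded protein and integrated stress response had 16 of 23 above 0 with a median of 0.0267, or 0.0134 without control replicate 1. ATF3, a stress-induced transcription factor, differed by 0.16 (SE 0.0964), and by 0.27 without that array. IFIT1, an interferon-induced RNA-binding protein, lay between 7.38 and 7.63 in MWCNT arrays, against 7.98, 7.49 and 7.67 in control arrays, a difference of -0.24 (SE 0.0835) that was -0.11 without control replicate 1. The adherens junction gene CDH1 differed by -0.17 (SE 0.0712, adjusted p = 0.941), and by -0.10 without that array.

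**Figure D3:**
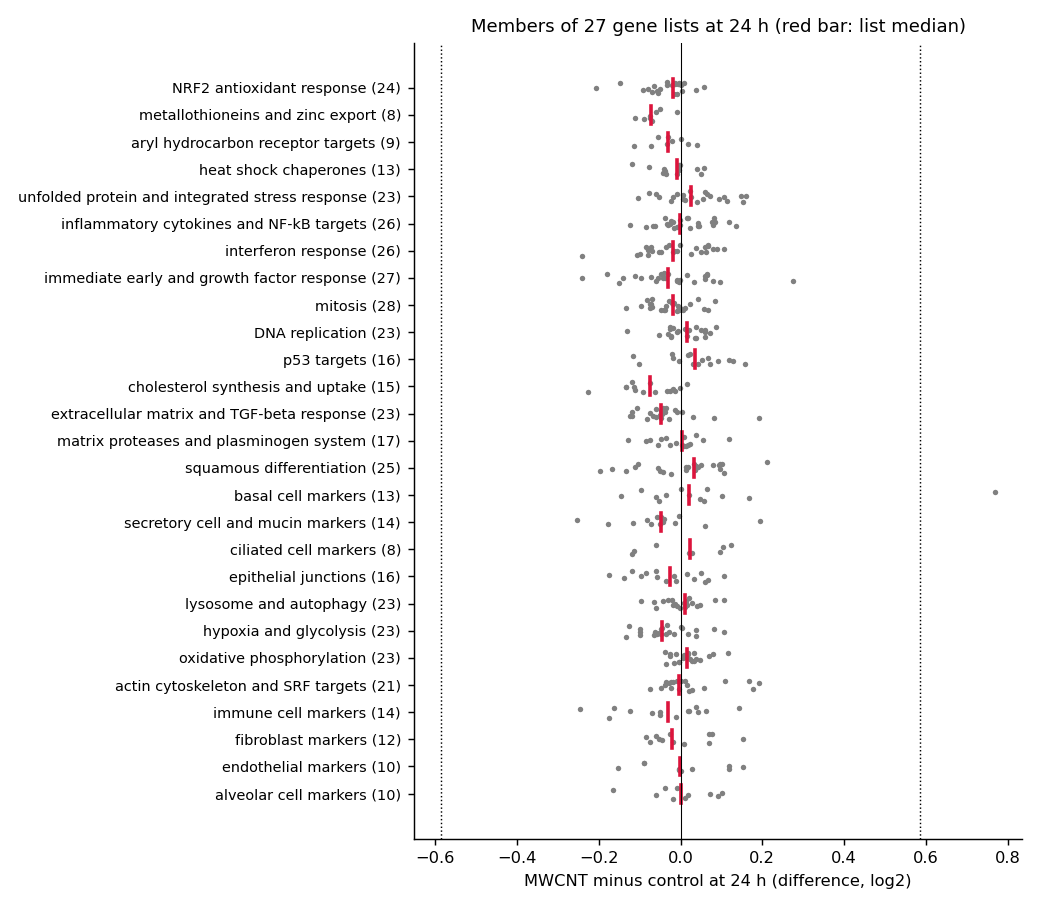
MWCNT minus control at 24 h (log2) for each measured member (grey points) of 27 gene lists, with the number measured in brackets, the list median as a red bar and dotted lines at 1.5-fold. Medians lie between -0.0752 and 0.0355, and EGFR among the basal markers is the only point past a dotted line.

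Metallothioneins and aryl hydrocarbon receptor targets had levels that depended on which arrays were compared. All 8 measured metallothionein and zinc export genes differed by less than 0 (median -0.072), but their median was -0.22 at 100 µg/ml and 0.08 at 10 µg/ml, each against the same control arrays. The pooled median was -0.225 without control replicate 1 and 0.0167 without control replicate 2. MT2A, a metal-binding protein, had 12.23, 12.45 and 12.42 at 10 µg/ml and 12.40, 12.05 and 11.97 at 100 µg/ml, against 12.07, 12.51 and 12.41 in control arrays. Its low arrays were replicates 2 and 3 at 100 µg/ml and control replicate 1, so the groups overlapped, and the difference of -0.08 (SE 0.0809) was -0.21 without control replicate 1. CYP1B1, a dioxin-inducible oxidase, had the same 3 low arrays, control replicate 1 the lowest of them, with 10.28, 10.54 and 10.49 at 10 µg/ml and 10.53, 9.70 and 9.73 at 100 µg/ml, against 9.30, 10.81 and 10.74 in control arrays. Its difference of -0.07 (SE 0.208) was -0.56 without control replicate 1, 0.19 without control replicate 2 and 0.16 without control replicate 3, and its other probe sets gave 0.13 and -0.30.

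TIPARP and CYP1A1 are shown with their promoters because neither passed the threshold at 24 h and both fell at 1 h. The sequences are from RefSeq (GRCh38.p14) and run from 250 bases before to 50 after the annotated start of the gene, in the direction of transcription; TIPARP is chr3:156674340-156674639 on the plus strand and CYP1A1 chr15:74725479-74725778 on the minus strand. Capitals mark the xenobiotic response element core GCGTG or its reverse complement CACGC. TIPARP holds 2 matches, starting 208 and 142 bases before the start, and CYP1A1 holds 1, 57 bases before it.
TIPARP: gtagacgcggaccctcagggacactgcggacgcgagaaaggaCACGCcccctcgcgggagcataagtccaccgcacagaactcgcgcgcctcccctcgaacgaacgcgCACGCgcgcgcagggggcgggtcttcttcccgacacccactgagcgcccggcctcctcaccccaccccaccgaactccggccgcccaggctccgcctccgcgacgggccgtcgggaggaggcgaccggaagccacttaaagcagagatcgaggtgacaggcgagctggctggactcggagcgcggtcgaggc
CYP1A1: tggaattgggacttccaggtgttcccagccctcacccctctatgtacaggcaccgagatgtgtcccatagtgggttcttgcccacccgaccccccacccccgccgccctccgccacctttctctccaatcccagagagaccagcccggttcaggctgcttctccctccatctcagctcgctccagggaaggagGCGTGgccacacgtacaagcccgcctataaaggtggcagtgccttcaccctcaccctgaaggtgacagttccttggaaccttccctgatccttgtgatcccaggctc
A match to this core is common: it was found in 4455 of 9563 promoters of tested genes (46.6%), in 5 of the 7 promoters found among 9 aryl hydrocarbon receptor list members, in 46 of 97 promoters of the genes higher without overlap at 24 h (47.4%) and in 48 of 115 promoters of those lower (41.7%).

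TIPARP, which shuts the receptor off by adding ADP-ribose to it, had 10.02, 10.07 and 9.97 at 10 µg/ml and 10.13, 9.67 and 9.73 at 100 µg/ml at 24 h, against 9.86, 10.12 and 10.14 in control arrays. The 24 h groups overlapped, with a difference of -0.11 (SE 0.0711), and -0.20 without control replicate 1. At 1 h it had 11.94, 11.92 and 12.00 at 10 µg/ml and 11.70, 11.71 and 11.74 at 100 µg/ml, against 12.53, 12.56 and 12.57 in the 1 h control arrays, and it fell by 0.72 (SE 0.0711, adjusted p = 7.13e-07). The 24 h difference minus the 1 h difference was 0.60 (SE 0.101, adjusted p = 0.00287). CYP1A1 differed by 0.04 (SE 0.0843) at 24 h, or -0.05 without control replicate 1, and fell by 0.42 (adjusted p = 0.00894) at 1 h, with 0.46 between the times (adjusted p = 0.136).

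The test of the 24 h difference minus the 1 h difference, in which each time has its own 3 control arrays, passed 33 genes (0.276%). Of these, 28 (0.234%) had a smaller or more negative difference at 24 h. In the other 5 (0.0418%) it was less negative or turned positive at 24 h. Of the 33, 31 had also passed at 1 h (all genes 1.22%), 27 of them higher and 4 lower there. In 26 of the 33 the signs at the 2 times were opposite. The test contains the 1 h difference itself, so these counts follow in part from it and are no separate evidence. Without control replicate 1 of 24 h, 60 genes passed, and with array weights 217. EGR3, an immediate early transcription factor, lay between 3.64 and 4.32 in MWCNT arrays at 24 h, against 4.08, 3.70 and 4.17 in control arrays, far below the table's median in both groups. At 1 h it had 9.76, 10.25 and 10.09 at 10 µg/ml and 11.48, 11.26 and 11.40 at 100 µg/ml, against 9.35, 8.72 and 8.63 in control arrays. The groups overlapped at 24 h and stepped up with dose at 1 h. The difference was 0.03 (SE 0.151) at 24 h and 1.81 (SE 0.151) at 1 h, and between the times it was -1.78 (SE 0.213, adjusted p = 9.36e-05).

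GLIPR1, a member of the CAP family of secreted proteins, was above the table's median at both times. It had 7.72, 7.29 and 7.60 at 10 µg/ml and 7.58, 7.51 and 7.71 at 100 µg/ml at 24 h, against 7.57, 7.27 and 7.73 in control arrays. At 1 h it had 8.32, 8.49 and 8.51 at 10 µg/ml and 9.57, 9.92 and 10.03 at 100 µg/ml, against 7.31, 7.47 and 7.87 in control arrays. The groups overlapped at 24 h and separated by dose at 1 h, and the difference between the times was -1.55 (SE 0.207, adjusted p = 0.000316). Without control replicate 1 of 24 h, the 24 h differences of EGR3 and GLIPR1 were 0.08 and 0.07, and those of FILIP1L and GBP1, described next, 0.10 and 0.09.

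GBP1, a guanylate-binding protein of interferon and growth factor signalling, differed by -0.03 at 24 h and 1.03 at 1 h, with -1.06 between the times (adjusted p = 0.000818). THBS1, the matrix glycoprotein thrombospondin 1, differed by -0.12 at 24 h and 0.90 at 1 h, with -1.03 between the times (adjusted p = 0.0247, and 0.0559 and 0.09 without control replicates 2 and 3 of 24 h). Its other 2 probe sets gave 0.05 and -0.03 at 24 h and 0.93 and 1.13 at 1 h. FILIP1L, a filamin-binding protein relative, differed by -0.02 at 24 h and 1.19 at 1 h, with -1.22 between the times (adjusted p = 0.000511). NR4A1, a nuclear receptor with no known ligand that is induced early, differed by -0.11 at 24 h and 1.04 at 1 h, with -1.15 between the times (adjusted p = 7.62e-06), but its other probe sets gave -0.11 and 0.12 at 1 h and a median of 0.02 between the times.

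The 5 genes whose difference was less negative or turned positive at 24 h were TIPARP, CDC42EP2, CADM1, ABHD11 and PPP1R14B. In size, each differed less at 24 h than at 1 h. CDC42EP2, an effector of the cytoskeletal GTPase CDC42, lay between 7.67 and 7.73 in MWCNT arrays at 24 h, against 7.58, 7.47 and 7.66 in control arrays. All 6 were above all 3, by 0.14 (SE 0.0659), whereas at 1 h the gene fell by 0.38 (SE 0.0659), and the difference between the times was 0.52 (SE 0.0933, adjusted p = 0.00735). Its other probe set differed by -0.02 at 24 h and -0.26 at 1 h, with 0.24 between the times, which did not pass (adjusted p = 0.785). CADM1, ABHD11 and PPP1R14B each missed the threshold in 7 of the 9 fits that left out a single array (highest adjusted p 0.173, 0.0942 and 0.137). LBH, a transcription cofactor of limb and heart development, moved the other way: it differed by -0.20 at 24 h, with all 6 MWCNT arrays below the control arrays, and rose by 0.29 at 1 h, with -0.49 between the times (adjusted p = 0.0133).

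**Figure D4:**
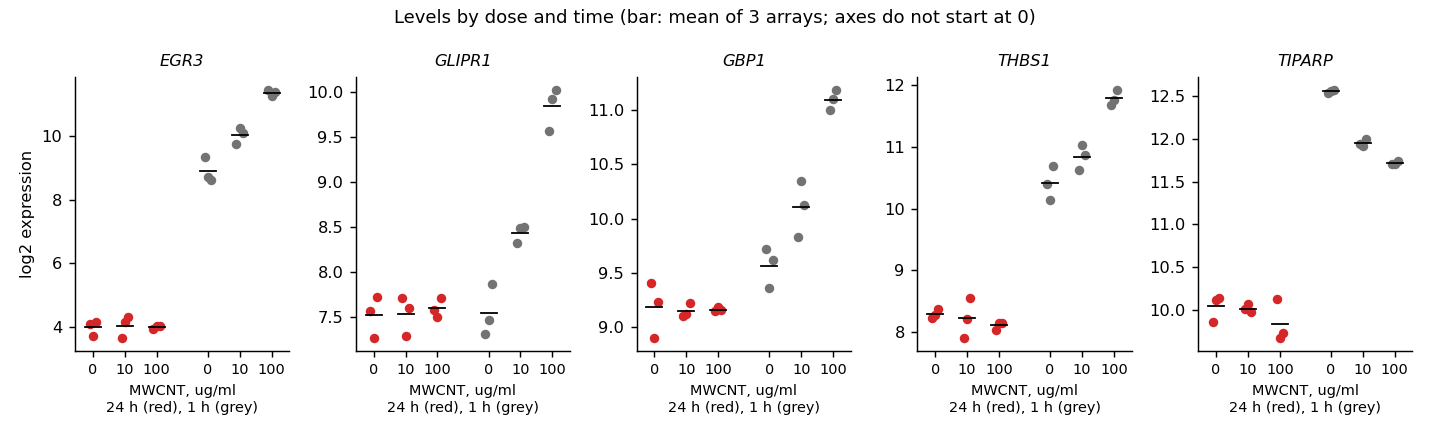
Log2 expression of EGR3, GLIPR1, GBP1, THBS1 and TIPARP by MWCNT dose at 24 h (red, left of each panel) and 1 h (grey, right), with 3 arrays per dose and a bar at their mean. At 24 h the dose means lie close together, with overlap of all groups but THBS1 at 100 and 0 µg/ml, and at 1 h the means step with dose in each panel.

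Over all 105 genes that had risen at 1 h, the median difference was 0.073 at 24 h, or 0.0157 without control replicate 1, and 0.46 at 1 h. Of these, 65 were above 0 (all genes 45.7%) and 40 below 0 (all genes 54.3%) at 24 h. Without control replicate 1, 40 were again below 0, beside 47.0% of all genes. At 24 h with all arrays, 4 of the 105 lay without overlap above (all genes 0.986%) and 3 below (all genes 1.19%) their control arrays. Of the 105, 91 had a 95% interval inside 1.5-fold. The 41 genes that had fallen at 1 h had a median of -0.0184 at 24 h and -0.24 at 1 h, and the 24 h interval of all 41 lay inside 1.5-fold. In the immediate early list, 0 of 27 members passed at 24 h and 6 rose at 1 h, where 0.878% of all genes rose, with list medians of -0.0296 at 24 h and 0.12 at 1 h. In the actin and SRF list, 0 of 21 passed at 24 h and 7 rose at 1 h, with medians of -0.0027 at 24 h and 0.16 at 1 h, and 4 of the 21 passed between the times, beside 0.276% of all genes. TAGLN, an actin-binding SRF target, differed by 0.19 (SE 0.158) at 24 h, or 0.38 without control replicate 1, and rose by 1.07 (SE 0.158) at 1 h, and the difference between the times did not pass (-0.88, adjusted p = 0.131).

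**Figure D5:**
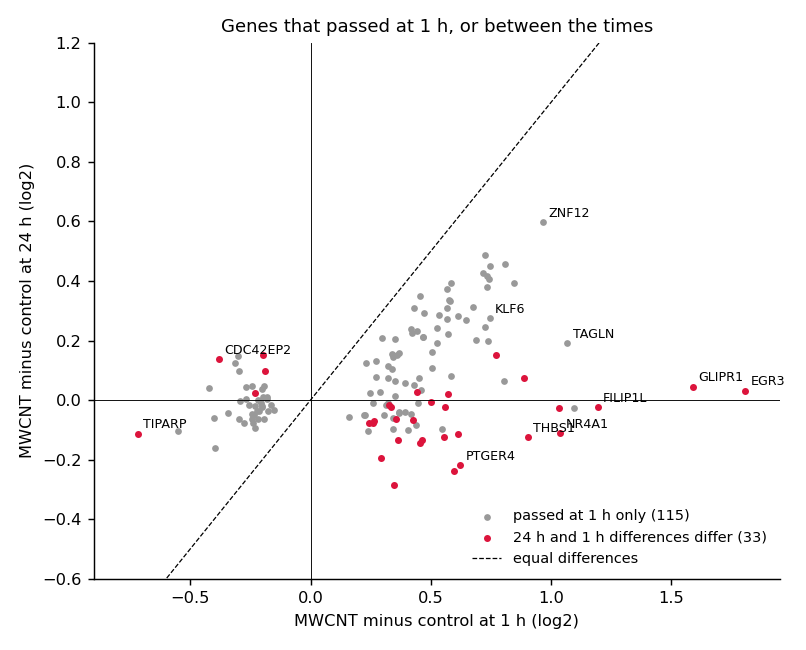
MWCNT minus control at 24 h (vertical axis, log2) against the same at 1 h (horizontal axis, log2) for the genes that passed at 1 h or between the times, with the 33 that passed between the times in red and equal differences on the dashed line. EGR3 and GLIPR1 lie near 0 at 24 h and at 1.81 and 1.59 at 1 h, and ZNF12 lies at 0.60 at 24 h, a difference that is 0.12 without control replicate 1.

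No gene passed between the doses at 24 h. MWCNT at 100 µg/ml against 10 µg/ml passed 0 genes (0%, smallest adjusted p 0.871), with 268 unadjusted p under 0.05 (2.24%), and the 3 and 3 arrays did not overlap for 386 genes higher (3.23%) and 506 lower (4.23%) at 100 µg/ml. CCN2, a matrix-associated growth factor and YAP target, had 9.22, 9.0 and 8.93 at 100 µg/ml, against 9.31, 9.48 and 9.42 at 10 µg/ml, a difference of -0.35 (SE 0.0739, adjusted p = 0.871), with 9.15, 9.43 and 9.22 in control arrays. Among genes above the table's median whose 3 and 3 arrays did not overlap, CCN2 had the largest difference below 0, followed by IER3, EPHB6, TMT1A and SPRY2, between -0.25 and -0.22. Under the same limits the largest above 0 were NAA15, MVB12B, TOP3B, ZNF148 and VWA1, between 0.18 and 0.33. Replicate 1 at 100 µg/ml was nearer the 10 µg/ml arrays than replicates 2 and 3 were in MT2A, CYP1B1 and TIPARP. HK2, the inducible hexokinase of glycolysis, had 9.34, 9.01 and 8.97 at 100 µg/ml and 9.23, 9.33 and 9.24 at 10 µg/ml, against 9.24, 9.37 and 9.33 in control arrays. Without replicate 1 at 100 µg/ml, it was the only gene that passed at that dose (-0.32, adjusted p = 0.022).

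TiO2 nanobelts at 24 h, set against the same 3 control arrays and with the same number of arrays, passed 1923 genes (16.1%). Of the 10 genes named above for the largest negative differences, all but SPRY2 (0.02) and LBH (0.15) were also below 0 with TiO2. CD1D, for example, differed by -0.37 (limma, adjusted p = 0.00382). All but PAWR (-0.05) of the 10 positive ones were also above 0, HAUS2 by 0.42 (limma, adjusted p = 0.0107). Both particles share these control arrays, and the named genes were picked by how those arrays lay against the MWCNT arrays. Like signs with TiO2 therefore follow in part from that choice and are no separate evidence. The share of like signs over all genes is not given here. The direct test of MWCNT against TiO2, both doses of each, uses no control array and passed 3251 genes (27.2%), of which 1977 (16.5%) were higher in MWCNT and 1274 (10.6%) lower. Beside the MWCNT differences of -0.07, -0.11 and -0.17, CYP1B1, TIPARP and CDH1 differed from the shared control arrays by 0.96, 0.33 and -0.39 with TiO2. Without control replicate 1, the MWCNT differences of these genes were -0.56, -0.20 and -0.10. For CYP1B1 that array was 9.30, against 10.81 and 10.74 in the other control arrays. The TiO2 differences and the TiO2 count were not recomputed without control replicate 1.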

How the data were processed

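The deposited values were log2 expression per probe set, made by the authors with RMA (robust multi-array average) per the submitters' processing notes, version not given; no genome build is given in the sources used here. The platform annotation paired 19064 of 22277 probe sets with 1 symbol, 1043 with several and 2108 with none (62 were array controls). Per gene, the probe set with the highest mean over 30 arrays was used, which left 11963 genes.

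Without further normalisation, limma 3.58.1 under R 4.3.3 (array weights with statmod 1.5.0) fitted a mean for each of the 10 groups to all 30 arrays, and tests were two-sided. P values were adjusted by Benjamini and Hochberg over all 11963 genes of a comparison, with 0.05 as threshold; "rose" and "fell" refer to genes that passed. The pooled difference is the mean of both dose means minus the control mean. For a single gene, an exact permutation test of 6 against 3 arrays cannot give a two-sided p under 0.0238. The number of arrays limits the precision. Figures were drawn in matplotlib 3.10.9, and tables made in numpy 2.4.6 and pandas 2.3.3, under Python 3.11.15. The fit was tested on simulated data with the same variance for all arrays of a gene. That test does not cover arrays of unequal spread, such as the control arrays of 24 h.

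The comparison, the 27 lists and the naming rule were chosen with earlier results of these data known. Named genes were the 10 largest differences each way among genes without overlap and above the table's median, the largest members of each list, the largest at 1 h and between times among those that passed, and the 5 largest each way between doses, under the same limits as the first. Alternatives were other models and normalisations, array weights, a filter on dim genes, other probe sets and leaving out each array. Same-numbered replicates did not deviate together (correlations of -0.15 to 0.13), so the numbers were not taken as pairs.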

Additional observations from a re-analysis of the deposited data

Results flagged for a closer look

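In 3 named genes, 1 of the 6 MWCNT arrays at 24 h lay far from the others; among groups with no true outlier, chance flags about 1 in 20, and 93 genes were looked at. ANGPTL4, a regulator of lipoprotein lipase, was 7.36 in replicate 3 at 100 µg/ml, against 6.99 to 7.12 in the other 5. CADM1, a cell adhesion molecule, was 5.58 in replicate 1 at 100 µg/ml, against 5.69 to 5.75. PHACTR2 was 10.49 in replicate 1 at 10 µg/ml, against 10.32 to 10.36.

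In 11 named genes, the MWCNT difference at 24 h differed from that at 1 h by the test of the difference itself (24 h minus 1 h, limma). It was more negative at 24 h for EGR3 (-1.78), GLIPR1 (-1.55), FILIP1L (-1.22), NR4A1 (-1.15), GBP1 (-1.06) and THBS1 (-1.03). It was more positive for TIPARP (0.60), CDC42EP2 (0.52), CADM1 (0.35, adjusted p = 0.0496), ABHD11 (0.29, adjusted p = 0.0371) and PPP1R14B (0.26, adjusted p = 0.0496).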

How the results depend on the processing

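The count of 0 genes for both MWCNT doses against control at 24 h held in the model of the 9 arrays alone, with cyclic loess, with the dim-gene filter, with trend and robust moderation, with every probe set and without any single array (0 to 0). Array weights gave control replicates 1, 2 and 3 weights of 0.308, 0.408 and 4.87 and passed 471 genes (260 higher, 211 lower). Of these, 68 had arrays without overlap, beside 0.986% of all genes higher and 1.19% lower without overlap. With weights estimated anew without control replicate 1 (an alternative added after the data were examined), 0 passed. Array weights passed 722 genes at 100 µg/ml, 8 at 10 µg/ml and 1 between the doses (also 1 without control replicate 1). Leaving out single arrays gave 0 to 1 genes at 100 µg/ml, 0 to 0 at 10 µg/ml and between doses, and 23 to 60 between the times, 60 without control replicate 1. Weights gave 217 between the times. With the replicate number as a block, 0 genes passed for both doses and 30 between the times (2 higher, 28 lower). The median of epithelial junction genes, -0.0261, was 0.0096 without control replicate 1 and 0.0034 with weights and without it. The medians of 20 of the 27 lists took either sign over the settings run, among them extracellular matrix genes (-0.0639 to 0.0058), inflammatory genes (-0.043 to 0.0787) and metallothioneins (-0.235 to 0.0167). Those of 7 kept their sign: NRF2, cholesterol, hypoxia, mitosis, secretory, p53 and unfolded protein genes. Of the 14 secretory genes, only 2 were above the table's median.

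Directions turned for 23 named results. Leaving out single arrays gave CYP1B1 -0.56 to 0.19, MT1E -0.31 to 0.057, MT1F -0.27 to 0.0053, MT1H -0.22 to 0.017, MT2A -0.21 to 0.0163, HSP90B1 -0.0572 to 0.21, LIF -0.0654 to 0.27, NFKBIA -0.0152 to 0.10, CDT1 -0.0291 to 0.16, LCN2 -0.0957 to 0.0345, KRT10 -0.00399 to 0.081, ENG -0.0554 to 0.0625 and CAV1 -0.0769 to 0.22. Array weights turned ABCC3 (0.0141), HSP90B1 (-0.0137), HMGCS1 (0.0035), MUC1 (0.00802) and CNN3 (-0.00026). Weights without control replicate 1 turned HSP90B1 (-0.0575), CDT1 (-0.0196), LCN2 (0.0369), SPA17 (0.0191) and CAV1 (-0.0428). Other probe sets turned YIPF6 (-0.036), ABCC3 (0.0451), HSP90AB1 (0.0642), THBS1 (0.014), MMP14 (-0.0536), KRT10 (-0.0065), CAV1 (-0.0863) and, between the times, NR4A1 (0.024). Of these, only NR4A1 between the times had passed, and the cause was not tested.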

Other observations

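Probe sets with no symbol or several, 3151 in all, were tested in the same way and passed 0 at 24 h for both MWCNT doses against control (limma, smallest adjusted p 0.776), with 209 at an unadjusted p under 0.05 (6.63%) and 4 past 1.5-fold. Of the 118 genes higher without overlap at 24 h, 58 (49.2%) lay further from control at 100 µg/ml than at 10 µg/ml, and of the 142 lower, 84 (59.2%) did, beside 48.8% of all genes higher and 51.2% lower at 100 µg/ml than at 10 µg/ml. Markers of mitochondrial respiration had 15 of 23 differences above 0 with a median of 0.0152, and lysosome and autophagy genes 13 of 23 with a median of 0.0109, which was -0.0095 without control replicate 1. MAP1LC3B, the autophagosome protein, averaged 10.26 ± 0.112 in MWCNT arrays (SD, n = 6) and 10.15 ± 0.106 in control arrays (SD, n = 3).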
